A study of Mus musculus with 5 samples.

Results

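The genes described here are 166 protein-coding genes of the mouse that encode serine proteases, the serpins that inhibit such enzymes, and phospholipases A, out of 21883 protein-coding genes on the autosomes and sex chromosomes. They were chosen by symbol alone, as RefSeq genes whose names begin with Tmprss, Prss, Klk, Serpin or Pla and the family's number or letter. There were 17 Tmprss, 39 Prss, 26 Klk, 63 Serpin and 21 Pla genes. By their symbols only 10 of the 21 phospholipase genes belong to the secreted groups (Pla2g1b, Pla2g2, Pla2g3, Pla2g5, Pla2g10 and Pla2g12). The other 11 encode cytosolic, lysosomal, lipoprotein-associated or related enzymes and the receptor Pla2r1. The split follows the symbols and does not mean that all products of these 11 genes stay within the cell.

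Their chromatin was measured in mTEClo, medullary thymic epithelial cells with low CD80 that were sorted from the thymus of wild type B6 mice as EpCAM+, UEA-1+ and Ly51lo cells. Trimethylation of lysine 36 on histone H3 (H3K36me3) was profiled by chromatin immunoprecipitation and sequencing (ChIP-seq) on 50000 cells. There were 2 ChIP libraries, called series 1 and series 2, with 3 inputs that saw no antibody, of which 2 belong to series 1 and 1 to series 2. Cells came from individual mice, and which mouse gave which library is not stated, so differences between the libraries cannot be split into biological and technical ones. All samples were wild type, and no treatment is named.

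H3K36me3 is placed along the bodies of genes while RNA polymerase II transcribes them, so it marks transcribed stretches more than start sites. Medullary thymic epithelium shows developing T cells a wide range of proteins that are otherwise made in single tissues. Digestive proteases of the pancreas, glandular kallikreins and liver serpins are textbook cases of such proteins. The membrane-bound Tmprss proteases, the secreted or anchored Prss enzymes and the kallikreins cut proteins at a serine-based active site. Most serpins trap such enzymes by an irreversible change of shape, and phospholipases A release fatty acids from membrane lipids.

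Peak lists were the data. Series 1 held 7231 broad peaks with a median width of 483 bp, and series 2 held 10243 with a median width of 222 bp. Each peak has a score given by the authors, from 10 up to 378 in series 1 and 483 in series 2, with medians of 21 and 16. The score describes a peak within its own list. Read counts are not part of the lists and the depth behind them is unknown, so the lack of a peak shows only that none was detected in that library.

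Few of the genes held a peak and none held one in both series. In series 1, 4 of 166 (2.41%, exact binomial 95% interval 0.66 to 6.05%) had a peak over at least 1 bp of the annotated gene, against 16.3% of all protein-coding genes. In series 2 there were 5 (3.01%, 0.985 to 6.89%), against 19.5%. A peak in both series was found in 0 of 166, which allows a share of up to 1.81% by a limit of 3 counts (exact upper bound 2.2%), against 8.42% of all protein-coding genes. In either series 9 genes had a peak (5.42%, 2.51 to 10%), against 27.4%. The median covered share of a gene was 0% in each series, over the 166 genes and over all protein-coding genes alike. Intervals and limits cover counting error only, and neighbouring family members are not independent draws. No difference from other genes was tested, because the families were chosen with results of these data known.

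Part of this gap went with gene length, since long genes held more peaks and the genes of these families are short. Their median length was 10.5 kb, against 17.2 kb for all protein-coding genes. When each gene was given the share of all protein-coding genes in its own length class, of 10 classes of equal size, the background was 11.1% in series 1, 13.1% in series 2, 4.64% in both and 19.5% in either, which amounts to 32.3 genes where 9 were found. Below the median length, 4 of 114 genes of the families had a peak in either series (3.51%), against 7.61% of all genes as short. Above it the counts were 5 of 52 (9.62%), against 47.1%. In the 3 longest classes, from 35.9 kb up, 4 of 23 had a peak (17.4%), against 57.9%. The pooled backgrounds of these ranges were not matched to the families' lengths. The shortest class, up to 1.54 kb, held none of the families' genes, and 0.229% of all genes there had a peak in either series. Class by class, the families were below the background except from 4.17 to 7.38 kb. There 3 of 46 had a peak in either series (6.52%), against 5.62%.

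**Figure D1:**
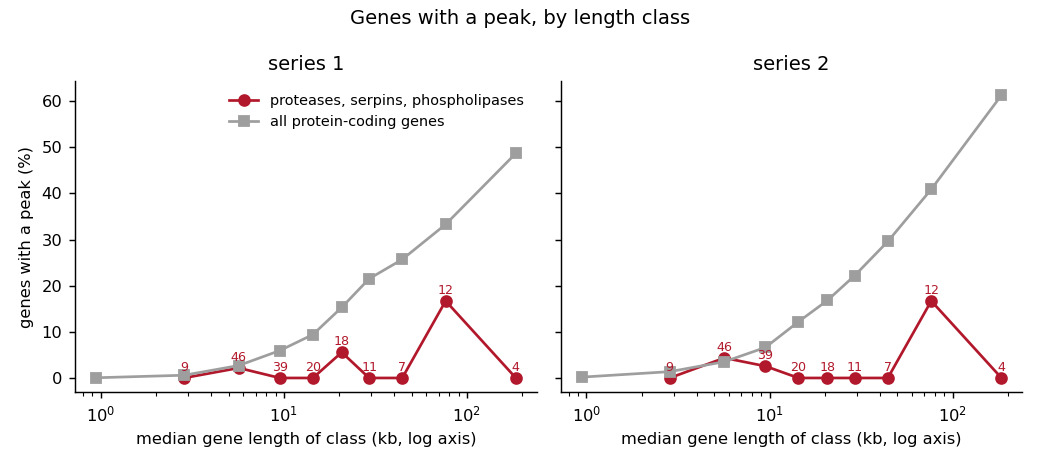
Percent of genes touched by a peak (y axis) against the median gene length of 10 length classes (x axis, kb, log scale), for series 1 and series 2; red circles are the proteases, serpins and phospholipases, with their number in each class, and grey squares all protein-coding genes. The background climbs to 48.7% and 61.3% in the longest class, where none of the 4 genes of the families had a peak in either series.

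With the authors' score set at 20 or more, 2 genes remained in series 1 (1.2%), against 10.9% of all protein-coding genes, namely Klk1b8 and Tmprss2. In series 2 there were 3 (1.81%), against 9.02%, namely Klk1b21, Prss22 and Serpini1. None had such a peak in both series, against 3.3%, and 5 had one in either series (3.01%), against 16.6%. With 5 kb added on each side of every gene, 6 were called in series 1 (3.61%), against 18.5%, and 8 in series 2 (4.82%), against 22.8%. In both series the count was again 0, against 9.42%, and in either series it was 14 (8.43%), against 31.9%.

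A measure that does not count genes showed the same order. The spans of the 166 genes, merged where they overlap, covered 3.31 Mb, of which 2071 bp (0.0625%) lay under series 1 peaks and 1456 bp (0.0439%) under series 2 peaks. For all protein-coding genes the shares were 0.317% and 0.225%. The families had 1.51 peaks per Mb of span in each series, against 4.99 and 6.2 per Mb.

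The families differed in how far they stood from genes of their length. Of the Tmprss genes, whose median length is 38.3 kb, 1 of 17 had a peak in either series (5.88%), against a background of 43.4% at the same lengths. Of the Prss genes 1 of 39 had one (2.56%, background 10.9%), of the Serpina genes 1 of 24 (4.17%, background 11.1%) and of the Serpinb genes 1 of 28 (3.57%, background 21.5%). None of the 10 secreted phospholipases (background 19.5%) and none of the 11 other Pla genes (background 41.4%) had a peak, and 0 of 21 allows a share of up to 14.3% by the same limit of 3 counts (exact upper bound 16.1%). The kallikreins were near their background, with 3 of 26 (11.5%) against 10%, and so were the serpins from Serpinc to Serpini, with 2 of 11 (18.2%) against 26.3%. Of the 3 kallikreins, Klk1b21 and Klk1b26 share a peak. Only Klk1b8 is left when genes that overlap another are set aside, and Klk1b21 is lost when genes are measured from the start site of the promoter table. Counts per family are small, and families were not compared by a test.

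**Figure D2:**
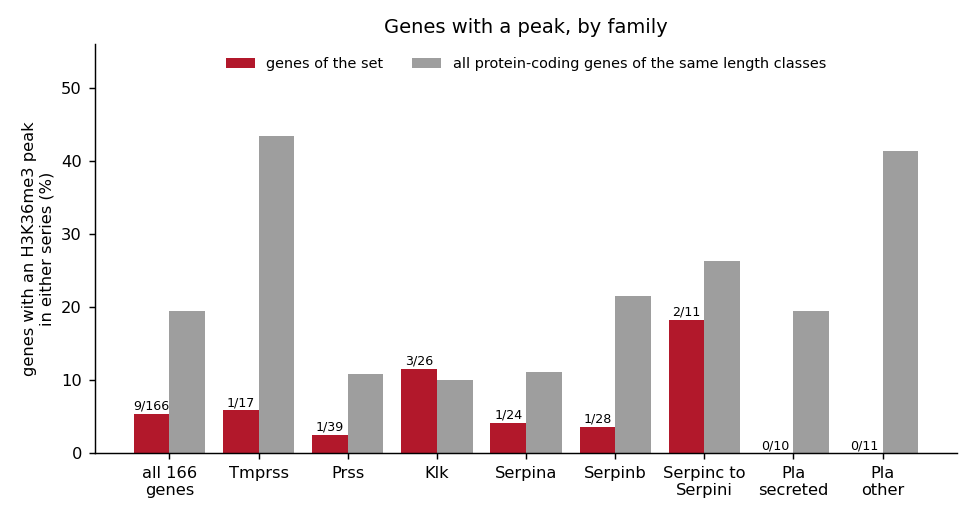
Percent of genes with a peak in either series (y axis), for all 166 genes and for each family (x axis); red bars are the genes of the family, with counts above them, and grey bars the share of all protein-coding genes of the same length classes. The red bar is below the grey bar in every group except Klk, which stands at 11.5% against 10%.

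Of the Tmprss genes, Tmprss2 alone carried peaks, and both came from series 1. Tmprss2 encodes an epithelial transmembrane protease known for cleaving the surface proteins of influenza and corona viruses. It spans 94.9 kb on chromosome 16 from 97564682 to 97659541 (mm10). In series 1, 0.908% of the span lay under 2 peaks, and in series 2 the value was 0%. A peak of 266 bp from 97604878 to 97605143 had a score of 40, reached or passed by 11.8% of series 1 peaks, and lay 6.18 kb downstream of the start site of the RefSeq promoter table. The promoter window of that start site, from 97611146 to 97611445, lies well inside the annotated gene, which continues upstream to 97659541. A wider peak of 595 bp from 97580817 to 97581411 had a score of 25 and lay 30.1 kb downstream. The nearest series 2 peak was 15.8 kb outside the gene.

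None of the other 16 Tmprss genes held a peak, and their distances to the nearest one varied widely. Tmprss5, which is named with Tmprss4 after the values were seen, lay 15.6 kb from a series 1 peak and 56.5 kb from a series 2 peak, and Tmprss4 lay 23.3 and 41.2 kb away. Tmprss15, the gene of enteropeptidase, which activates trypsin in the gut, is the longest of all the families at 138 kb. Its nearest peaks were 641 kb away in series 1 and 95.7 kb away in series 2. Tmprss11f, a gene of the airway trypsin-like group, spans 111 kb, with the nearest peaks 369 and 364 kb away. The 7 Tmprss11 genes lie in a cluster of 0.514 Mb on chromosome 5 that held no peak in either list, between genes or within them.

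Among the Prss genes, Prss22 had the best covered span of all 166 genes, in series 2. It encodes a tryptase of epithelia and lies on chromosome 17 from 23993534 to 24000722. A peak of 634 bp from 23995324 to 23995957 covered 8.82% of the gene in series 2, with a score of 27, against 0% in series 1, where the nearest peak was 79.9 kb away. This peak was wider than most, since 88.5% of series 2 peaks were at most as wide. The cluster of 7 Prss genes around it held no other peak of either list.

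Prss16, the thymus-specific serine protease of cortical epithelium, had no peak in either series, and the nearest were 458 and 479 kb away. Prss12, the gene of the synaptic protease neurotrypsin and the longest Prss gene without a peak, spans 59.7 kb, with peaks 106 and 151 kb away, and Prss40 spans 24.6 kb, with peaks 262 and 241 kb away. The pancreatic trypsinogen genes Prss1, Prss2 and Prss3 had none. Prss8, which encodes the epithelial protease prostasin and is named here for its role after its values were seen, had none within its 4.43 kb, with the nearest peaks 11.9 kb away in series 1 and 135 kb away in series 2.

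All 26 kallikrein genes lie in a cluster of 0.549 Mb on chromosome 7. It held 1 series 1 peak and 4 series 2 peaks, which is 1.82 and 7.29 peaks per Mb, against 2.68 and 3.79 over the genome between the first and last annotated gene of each chromosome. Klk1b8, Klk1b21 and Klk1b26, kallikreins of a tandem expansion in rodents that is known from the submaxillary gland, were the members hit. Klk1b8 was covered over 5.3% in series 1, by a peak of 227 bp from 43953565 to 43953791, and over 0% in series 2. Its score of 64 was the highest among series 1 peaks in the 166 genes, reached or passed by 3.04% of series 1 peaks, although only 2.85% of series 1 peaks were as narrow or narrower. A series 2 peak lay 6.08 kb from Klk1b8.

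The 2 series 2 peaks in the kallikreins were 219 and 224 bp wide, close to the list's median. The peak from 44014273 to 44014496, with a score of 12, counted for Klk1b26, of which it covered 5.22%, and for Klk1b21, which overlaps it. The peak from 44077300 to 44077518 lay in Klk1b21 only, with a score of 44 that 3.38% of series 2 peaks reached or passed. Klk1b21 is annotated over 102 kb and overlaps Klk1b26 and Klk1b27. Both of its peaks lay upstream of the start site in the promoter table, by 87.9 and 24.9 kb, within the stretch of the annotated gene that precedes it. In series 1 neither Klk1b21 nor Klk1b26 had a peak. Klk1b genes are close copies of each other, and how reads that fit several copies were treated is not given in the sources used here, so the gene assigned to such a peak is uncertain.

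The longest kallikrein genes without a peak were Klk1b16, of 19.4 kb, and Klk5, a protease of skin shedding, of 17 kb. Klk1b16 was 168 and 44.7 kb from the nearest peaks of series 1 and 2, and Klk5 was 102 and 2.52 kb away.

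**Figure D3:**
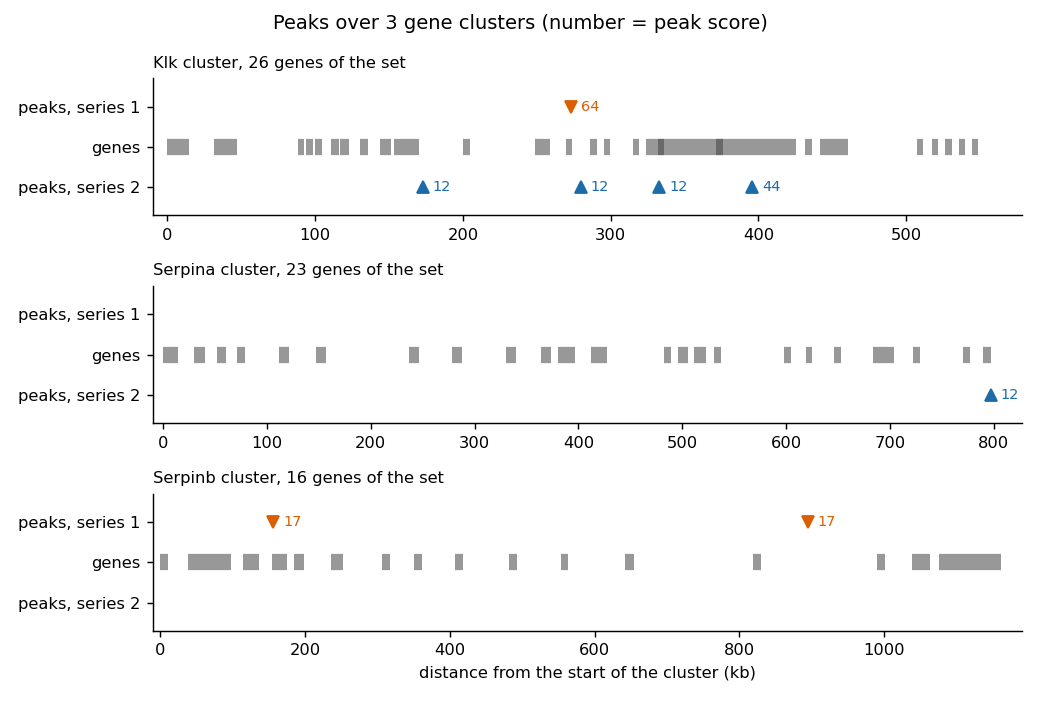
Maps of 3 gene clusters, with distance from the cluster's start in kb on the x axis; grey blocks are annotated genes of the families, orange triangles series 1 peaks and blue triangles series 2 peaks, each with its score. The Klk cluster holds 1 and 4 peaks, the Serpina cluster 0 and 1, and the Serpinb cluster of chromosome 13 holds 2 and 0.

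Serpina genes encode secreted inhibitors made largely by the liver, such as alpha-1-antitrypsin. The cluster of 23 of them on chromosome 12 spans 0.798 Mb and held no series 1 peak and 1 series 2 peak. That peak, of 218 bp from 104414062 to 104414279, covered 2.84% of Serpina3n, an acute-phase inhibitor, in series 2, against 0% in series 1. It had a score of 12, which 98.1% of series 2 peaks reached or passed, and lay 97.9% of the way from the start site to the gene's end. Serpina genes without a peak had the nearest one at a median distance of 444 kb in series 1 and 370 kb in series 2. Nearly all of these genes lie in that cluster, so their distances run to the same few peaks and are not independent. The longest were Serpina3j, of 19.9 kb, with peaks 373 and 93.5 kb away, and Serpina9, a serpin of germinal centre B cells, of 17 kb, with peaks 581 and 400 kb away. Serpina3 and Serpina1 genes are also close copies.

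Serpinb genes encode inhibitors that stay within the cell, several of them known from stratified epithelium. Serpinb9, an inhibitor of granzyme B on chromosome 13 from 32997061 to 33017955, was covered over 2.18% in series 1, by a peak of 456 bp from 32998574 to 32999029 with a score of 17, and over 0% in series 2. The peak lay 5.74 kb upstream of the start site in the promoter table, still within the annotated gene. The longest without a peak were Serpinb6a, of 84.9 kb, at 21.2 and 30.3 kb from the nearest peaks, and Serpinb1c, of 59.4 kb, at 57.9 and 74.4 kb. Serpinb5, the epithelial gene of maspin, named here for its role after its values were seen, had no peak, with the nearest 68.9 and 119 kb away.

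The remaining serpins act in clotting, matrix and nerve. Serpine2, the gene of protease nexin-1, which inhibits thrombin and plasminogen activators, spans 64.3 kb on chromosome 1 from 79794317 to 79858665. It was covered over 0.819% in series 1 and 0% in series 2. Its peak of 527 bp, from 79855243 to 79855769 with a score of 17, lay 3.16 kb downstream of the start site. Serpini1, the gene of neuroserpin, which inhibits tissue plasminogen activator, spans 85 kb on chromosome 3 from 75557493 to 75642523. It was covered over 0.189% in series 2 and 0% in series 1. Its peak, from 75642363 to 75642581 with a score of 21, ran past the annotated end of the gene, with 161 of its 219 bp inside. Serpine3, of 28.9 kb, and Serpini2, of 27.7 kb, were the longest of this group without a peak, with the nearest series 1 peaks at 6.24 and 207 kb and the nearest series 2 peaks at 243 and 28.6 kb. Serping1 and Serpinh1, which encode the C1 inhibitor and a collagen chaperone and are named here for their roles after their values were seen, had none.

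None of the phospholipase genes had a peak, including long ones. Pla2r1, the receptor of secreted phospholipases, spans 136 kb, and its nearest peaks were 63.7 kb away in series 1 and 125 kb away in series 2. Pla2g4a, the cytosolic enzyme that frees arachidonic acid, spans 132 kb, with peaks 448 and 78.8 kb away. Of the secreted enzymes, Pla2g5 spans 64.3 kb and Pla2g2c 19.3 kb, with series 1 peaks 12.8 and 132 kb away and series 2 peaks 74.5 and 193 kb away. The cluster of 5 secreted phospholipase genes on chromosome 4 held 1 series 1 peak outside all protein-coding genes, 0.94 kb from Pla2g2e.

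The peaks in these genes were not the strongest or widest of their lists. The 5 peaks of series 1 had scores from 17 to 64 with a median of 25, against a median of 21 over the list, and widths from 227 to 595 bp. The 5 peaks of series 2 had scores from 12 to 44 with a median of 21, against 16 over the list, and 4 of them were from 218 to 224 bp wide, near the list's median of 222 bp. Of the 9 genes hit, Klk1b21, Klk1b26, Serpina3n and Serpini1 thus rest on series 2 peaks close to that median width.

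**Figure D4:**
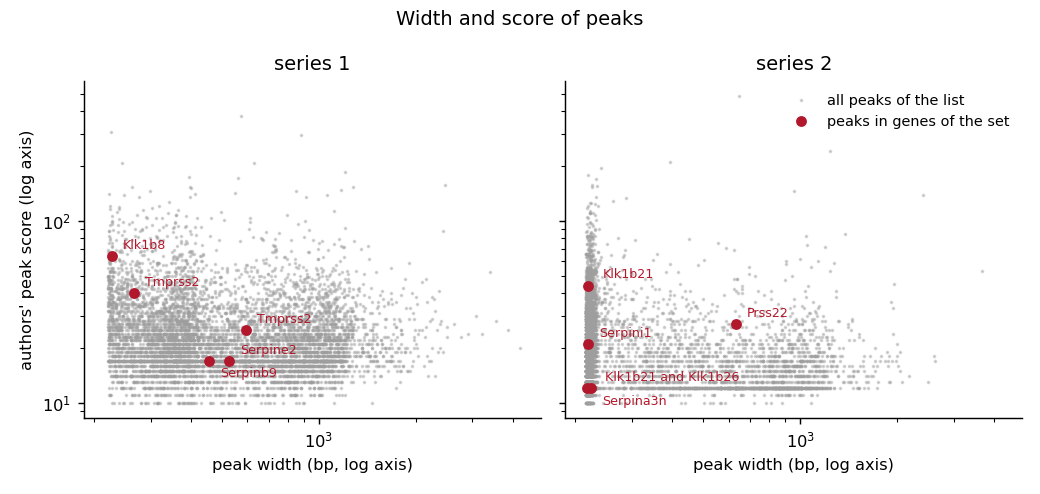
Width in bp (x axis, log scale) and authors' score (y axis, log scale) of every peak in series 1 and series 2 in grey, with the peaks in genes of the families in red and named. The 5 red points of each list lie between scores of 17 and 64 in series 1 and 12 and 44 in series 2, inside the cloud of all peaks.

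Median distances to the nearest peak differed widely between the families. Among the 162 such genes of series 1 the median distance to the nearest peak was 132 kb, against 116 kb for other protein-coding genes without a peak. For the 161 of series 2 it was 114 kb, against 81.7 kb. The largest family medians were those of Serpina genes, with 444 kb in series 1 and 370 kb in series 2, and of Serpinb genes, with 194 and 212 kb. Neighbouring genes of a cluster share their nearest peaks, so these distances are not independent. Klk genes (102 and 47.3 kb), the Pla genes outside the secreted groups (63.7 and 41 kb) and the serpins from Serpinc to Serpini (46.7 and 60.7 kb) lay closer in both series than other genes without a peak. Prss genes (105 and 130 kb) and secreted phospholipases (92.7 and 82.4 kb) were closer in series 1 only, and Tmprss genes (161 and 74.3 kb) in series 2 only. Within 5 kb of a peak were 2 (1.23%) in series 1, Klk14 and Pla2g2e, against 2.62% of the other genes, and 3 (1.86%) in series 2, Klk5, Pla2g4d and Serpinb3a, against 4.18%. The 107 genes that lie in 9 clusters of at least 5 family members had a peak in either series in 6 cases (5.61%). The 59 outside such clusters had one in 3 cases (5.08%), against 27.4% of all protein-coding genes. Gene lengths were not matched here, so these shares do not show whether genes in clusters differ from those outside. The clusters together span 5.22 Mb and held 1.34 series 1 peaks and 1.92 series 2 peaks per Mb, against 2.68 and 3.79 over the genome.

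Promoters of the families held few CpG dinucleotides. The symbol rule did not use this sequence feature, but the families were chosen with results of these data known. Genes with few CpG in their promoter held fewer peaks in general, as given below, so the feature need not be independent of that choice. Promoter sequence, of 250 bases before and 50 after the start, was matched for 139 of the 166 genes from RefSeq (GRCm38.p6, the build of mm10). The median promoter held 4 CpG, against 15 for all protein-coding genes with a promoter entry, at a median GC content of 52.7%, against 57%. Observed over expected CpG had a median of 0.209, against 0.608. The expected number is the product of the C and G counts divided by the promoter's length, and where a gene has several windows the one with most CpG was used. Promoters with a ratio of at least 0.6 and at least 50% GC, called CpG-rich here, numbered 9 of 139 (6.47%), against 48.2%. The motif TATAAA on either strand was found in 15.1% of the promoters, against 12.9% of all. No peak of either list touched any of the 162 promoter windows of these genes, against 0.118% of all 21262 windows of protein-coding genes, so this count is near the background.

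Serpine2 was the only gene with a peak among the 9 with a CpG-rich promoter, which also include Klk8, Pla2g6, Pla2g7, Pla2g15, Prss12, Prss23, Prss50 and Serpinb6a. The promoters of 4 of the genes with a peak are shown to make the range visible, from 41 CpG in Serpine2 and 13 in Tmprss2 to 3 in Serpina3n and 0 in Klk1b8. They run 5′ to 3′ on the strand of the gene, with each CpG in capitals, at chr1:79858616-79858915 (minus strand) for Serpine2, chr16:97611146-97611445 (minus strand) for Tmprss2, chr12:104406458-104406757 (plus strand) for Serpina3n and chr7:43950416-43950715 (plus strand) for Klk1b8.
Serpine2: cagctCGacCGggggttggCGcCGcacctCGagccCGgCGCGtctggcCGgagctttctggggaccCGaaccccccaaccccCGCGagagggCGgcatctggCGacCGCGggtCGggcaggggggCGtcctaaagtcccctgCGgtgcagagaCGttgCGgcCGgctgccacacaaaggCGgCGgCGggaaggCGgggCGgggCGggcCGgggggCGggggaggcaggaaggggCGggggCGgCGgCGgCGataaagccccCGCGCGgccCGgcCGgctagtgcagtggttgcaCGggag
Tmprss2: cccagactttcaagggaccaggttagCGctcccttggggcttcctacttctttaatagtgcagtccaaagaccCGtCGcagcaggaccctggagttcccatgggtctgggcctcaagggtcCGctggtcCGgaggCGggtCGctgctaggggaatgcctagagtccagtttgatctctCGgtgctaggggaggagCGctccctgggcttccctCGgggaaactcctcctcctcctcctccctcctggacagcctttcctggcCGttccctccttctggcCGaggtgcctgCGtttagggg
Serpina3n: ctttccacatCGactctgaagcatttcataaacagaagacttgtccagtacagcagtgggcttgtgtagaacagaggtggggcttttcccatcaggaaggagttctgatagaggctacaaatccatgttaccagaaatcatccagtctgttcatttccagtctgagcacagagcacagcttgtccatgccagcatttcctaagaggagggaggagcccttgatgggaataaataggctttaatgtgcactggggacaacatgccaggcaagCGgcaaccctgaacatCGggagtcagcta
Klk1b8: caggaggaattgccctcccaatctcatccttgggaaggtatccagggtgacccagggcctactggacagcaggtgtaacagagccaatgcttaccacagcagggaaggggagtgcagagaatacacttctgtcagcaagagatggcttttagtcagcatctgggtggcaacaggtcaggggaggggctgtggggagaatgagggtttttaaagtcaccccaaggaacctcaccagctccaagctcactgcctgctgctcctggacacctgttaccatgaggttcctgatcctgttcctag

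Genes with CpG-poor promoters had fewer peaks in general, with 14.6% of them holding a peak in either series, against 41% of CpG-rich ones, over all protein-coding genes with a promoter entry. Among the 130 CpG-poor genes of the families, 7 had a peak in either series (5.38%), against 12.6% of CpG-poor genes of the same length classes. In both series there were 0, against 2.45%. Among the 9 CpG-rich genes, 1 had a peak (11.1%), against 41.4% at the same lengths. The families were thus below their background at the same promoter class and length as well, by an amount that was not tested.

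**Figure D5:**
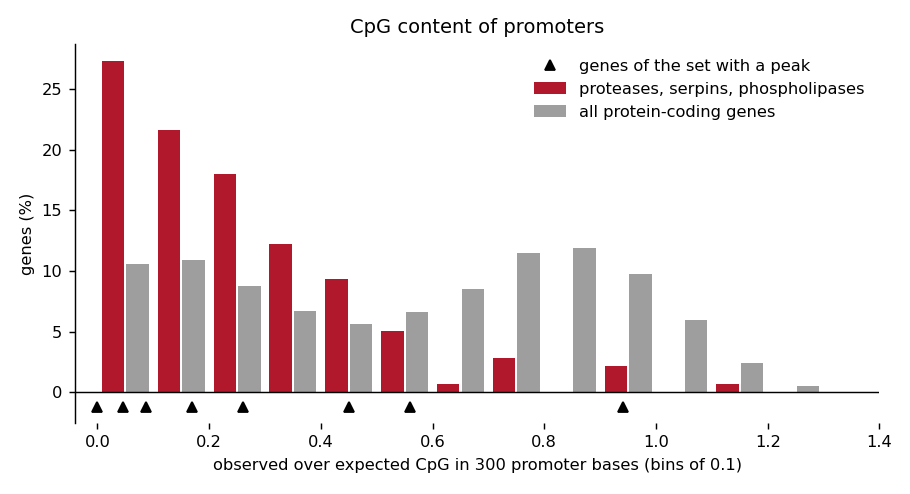
Percent of genes (y axis) by observed over expected CpG in the promoter, in bins of 0.1 (x axis); red bars are 139 genes of the families, grey bars all protein-coding genes with a promoter entry, and black triangles below the axis the genes of the families with a peak. The first bin holds 27.3% of the families' promoters, against 10.6% of all, and of the 8 marked genes only Serpine2 lies above 0.6.

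Other genes of the same pathways showed a mixed picture. Of 34 further matched proteases (of 35 listed) of the trypsin type, including clotting factors, granzymes and pancreatic elastases, 2 had a peak in either series (5.88%), against 20.7% of all genes at the same lengths. These were F2, the prothrombin gene, covered over 3.5% in series 1 and 0% in series 2, and Corin, a membrane protease of the heart, covered over 0% in series 1 and 0.107% in series 2. Of 26 inhibitors that are not serpins, 5 had one (19.2%), near the background of 21.6%. In series 1 only these were Spint1, Spint2, Spink2 and Spink10, with 2.9%, 3.36%, 3.08% and 0.226% covered. In series 2 only it was Tfpi, with 0.492%. Of 22 protease receptors and relatives of the phospholipases, 11 had a peak in either series (50%), against 35.9%. Lrp1, an endocytic receptor that clears complexes of serpins with proteases, and the lipid signalling enzymes Plcb1 and Pld1 had a peak in both series, with 0.515% and 0.26% of Lrp1, 0.0737% and 0.0969% of Plcb1 and 0.276% and 0.613% of Pld1 covered in series 1 and 2.

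As a comparison with a family of intracellular proteases, 34 of 56 ubiquitin-specific protease (Usp) genes had a peak in either series (60.7%, 41.6% at the same lengths) and 13 had one in both (23.2%, 14% at the same lengths). Cytochrome P450 genes, which like serpins and kallikreins lie in tandem clusters and are often restricted to a single tissue, had a peak in either series in 14 of 99 cases (14.1%, 26.8% at the same lengths). In both series 1 had one (1.01%, 6.63% at the same lengths). The 9 of 166 in the families described here (5.42%, 19.5% at the same lengths) stood lower than both, without a test. None of the 166 had a peak in both series, against 4.64% at the same lengths.

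The labelled cell type was checked against its markers. Of 12 genes of medullary epithelium 6 had a peak in either series (50%), against 25% of all genes at the same lengths, and Krt5, Itga6 and Lamb3 had one in both, whereas Epcam, Krt14 and Krt8 had none. Mature medullary genes were hit in 3 of 5 cases (60%, background 34.3%). Ciita had a peak in both series, Cd86 in series 1 only and Cd80 in series 2 only, whereas Aire and Fezf2 had none. The label names cells with low CD80, and the part of more mature cells in these peaks was not tested. Thymocyte genes were hit in 1 of 10 cases (10%, background 31.9%), cortical epithelial genes in 1 of 6 (16.7%, background 27.5%), fibroblast genes in 2 of 6 (33.3%, background 44.6%) and endothelial genes in 1 of 5 (20%, background 58.6%). Myeloid and dendritic genes, with 3 of 6 (50%, background 40.2%), and B cell genes, with 2 of 5 (40%, background 36.4%), were near or above theirs. The 6 cortical genes include Prss16, which is itself a gene of the families and had no peak. Outside the medullary lists, Ly75 (cortical epithelium), Fbn1 (fibroblasts), Flt1 (endothelium) and Ebf1 (B cells) also had a peak in both series. The part of these other cell types in the peaks of the proteases, serpins and phospholipases was not tested.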

How the data were processed

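Broad peaks of 2 H3K36me3 ChIP libraries were analysed; the 3 inputs entered only through the authors' peak calls. Per the submitters' processing notes, the build was mm10 and the tools included Bowtie2, SAMtools and MACS2, for which no version or setting is stated there. Peak names show that series 1 was compared with 2 inputs and series 2 with 1, and that each ChIP library has its own calls. The authors deposited for each peak a position and a whole-number score, whose meaning is not stated.

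Gene spans came from a RefSeq table on GRCm38.p6 without exons, so peaks could not be placed in exons or introns. Strand and start sites came from the RefSeq promoter table. A peak in a stretch that several genes share was given to all of them. A gene was called when at least 1 bp of its span lay under a peak. Background shares at the same lengths are the shares of all protein-coding genes in 10 length classes of equal size, averaged over the genes of a family. A cluster is a run of at least 5 members with at most 500 kb between neighbours. No test was made: there is 1 library per series, and the members and lists were chosen with earlier results of these data known. Clusters, distances, promoter features and the comparison with 2 other families were added after the peaks of the members had been seen. Genes were named by rule: all members with a peak, the 2 longest without one per family, and related genes with a peak in both series; further names were chosen after their values were seen. Python 3.11.15, numpy 2.4.6, pandas 2.3.3, scipy 1.17.1 and matplotlib 3.10.9 were used, and the counting was tested on simulated peaks.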

Additional observations from a re-analysis of the deposited data

How the results depend on the processing

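No paired analysis was possible because only peak lists of the ChIP libraries were analysed and no test compares groups. The count of genes with a peak in both series, 0 as reported, could rise only with 5 kb added on each side, where it stayed at 0; the other settings only remove peaks, genes or bases and say nothing about its stability. With scores of at least 20 the counts in series 1, series 2 and either series were 2, 3 and 5 of 166, and with at least 50 they were 1, 0 and 1. Backgrounds also shrank, to 16.6% and 2.16% in either series. Peaks wider than 250 bp left 1 in series 2 (background 7.37%) and 4 in either series (background 18.9%). With at least 1% of the span covered the counts were 2, 3 and 5 (background in either series 13.9%), and with at least 10% they were 0, 0 and 0, near the background of 0.74%. With 5 kb added on each side they were 8 in series 2 (background 22.8%) and 14 in either series (background 31.9%). Among the 150 genes that overlap no other protein-coding gene, 3 had a peak in series 2 (background 19.1%). Measured from the start site of the promoter table, a choice made after seeing the data, series 2 also had 3, of 139 genes (background 19.2%). Klk1b21 was lost and Prss22 has no entry, and Serpinb9 was lost from series 1. Leaving out 1 library gave 4 to 5 in either series: 5 without series 1 (background 19.5%) and 4 without series 2 (background 16.3%). The background at the same lengths ranged from 19.1% to 20.2% in either series over 20 and 5 length classes. Depth limits all of these counts and is unknown.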
